A study of Mus musculus with 6 samples.

Results

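The mouse T cell receptor beta locus was followed through every gene model whose GRCm38 symbol starts with Trbv, Trbd, Trbj or Trbc, which gave 53 of the 55536 models in the count table. They comprised 35 variable (Trbv) models, of which 22 were annotated as TR_V_gene and 13 as TR_V_pseudogene, 2 diversity (Trbd), 14 joining (Trbj) and 2 constant (Trbc) models. All lie on chromosome 6 between 40891229 and 41558452, a stretch of 667 kb. At least 60 counts over the 6 libraries were found for 44 members, between 1 and 59 for 5, and none for Trbv7, Trbv8, Trbv9 and Trbv27. The number of members with enough counts for the test across all genes was 43 (25 Trbv, 2 Trbd, 14 Trbj and 2 Trbc).

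A T cell builds the gene for its receptor beta chain by joining a diversity to a joining segment and then a variable segment to both, with the recombinase made of Rag1 and Rag2, and the joined exon is spliced to a constant exon. A variable segment is read out in RNA chiefly where it has been joined, so its share of all Trbv counts depends on how often it is used. The share also depends on segment length, since longer segments collect more counts. Use below means this share of counts, except where levels are given per kb of exon. In the thymus the beta chain is rearranged before the alpha chain, and a beta chain that pairs with the surrogate chain Ptcra lets the cell go on to the CD4 and CD8 double-positive stage.

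The libraries hold messenger RNA of thymocytes, T cells in development, from mice at steady state with no treatment. The groups were 3 wildtype mice (Il3ra+/+) and 3 mice labelled as lacking the alpha chain of the interleukin-3 receptor (Il3ra-/-), with 1 library each. Strain, age and sex of the mice and the design of the deletion are not stated in the sources used here. The series title names regulatory T cells and tissue egress, and the comparison shown here asks whether the locus differs between the genotypes. Il3ra itself had no fewer counts in the group labelled knockout: it had 465, 376 and 399 counts in wildtype and 481, 673 and 514 in the labelled knockout. The label of each group is therefore kept as a label throughout.

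Total counts ran from 55747682 to 82684219 per library, and the locus took between 0.434% and 0.503% of them. Levels are CPM, counts relative to the library size as scaled by TMM, and fold changes are labelled knockout over wildtype. The p-values measure only the spread between these 6 mice. Replicate 1 of each group stood apart by Xist, the RNA that silences an X chromosome in females, at 1477 and 2118 CPM against at most 0.873 CPM in the other 4 libraries, so values without both are given beside the summed results. The summed level of 10 thymocyte markers was 10413 to 11808 CPM in the wildtype and 8907 to 9581 CPM in the labelled knockout libraries, which do not overlap. The summed level of 5 markers of gamma delta T cells, which use another receptor, was 207 to 280 against 295 to 342 CPM, which do not overlap either. No marker of either list was at 0. A sum weighs abundant genes most, and not every thymocyte marker followed it. Mean levels were 3503 against 2862 CPM for Rag1, which did not overlap. They were 475 against 472 CPM for Cd3g and 33.4 against 36.7 CPM for Ptcra, which both overlapped. Of all tested genes, 20.3% did not overlap in either direction. In bulk RNA, fewer cells of a type and less RNA per cell cannot be told apart.

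The 2 diversity segments are the shortest genes of the locus and are printed with runs of at least 3 G in capitals, since both start with such a run and hold a longer one. Trbd1 lies at chr6:41533201-41533212 and Trbd2 at chr6:41542163-41542176 on the plus strand (GRCm38, sequences of GENCODE M21 transcripts).
Trbd1: GGGacaGGGGGc
Trbd2: GGGactGGGGGGGc
They precede the Trbj1 cluster with Trbc1 and the Trbj2 cluster with Trbc2.

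A joining segment adds the end of the receptor's most variable loop and a conserved phenylalanine and glycine stretch. The letters TTNGGNNNNGG, which can encode that stretch, were searched on both strands and were found on the sense strand of 11 of the 14 Trbj segments and on the opposite strand of none. Trbj1-6, Trbj1-7 and Trbj2-6 did not hold these letters, which does not show that they lack the encoded phenylalanine or glycine. In the first 50 bases of all 141672 transcripts of at least that length, 1.22% held the letters on the sense strand and 2.12% on either. The segments shown are the first and the last of the Trbj2 cluster, Trbj2-5, which had the smallest p among them, and the 3 without the letters, which are in capitals where present. They lie on the plus strand at chr6:41542754-41542803, chr6:41543453-41543501, chr6:41543810-41543856, chr6:41535554-41535606, chr6:41535642-41535687 and chr6:41543598-41543645 in the order printed (GRCm38).
Trbj2-1: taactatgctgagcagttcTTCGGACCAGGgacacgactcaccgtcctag
Trbj2-5: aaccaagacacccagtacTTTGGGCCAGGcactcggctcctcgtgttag
Trbj2-7: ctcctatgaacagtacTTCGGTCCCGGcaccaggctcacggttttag
Trbj1-6: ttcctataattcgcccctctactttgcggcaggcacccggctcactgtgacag
Trbj1-7: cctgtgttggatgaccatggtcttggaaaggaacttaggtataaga
Trbj2-6: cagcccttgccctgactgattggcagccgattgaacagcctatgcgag
Trbj2-6 is annotated as a TR_J_pseudogene, and the other 13 as TR_J_gene.

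Near its end a variable segment carries the codon of a conserved cysteine, where that loop starts. The letters TGTGC stood in the last 30 bases of 19 of the 22 TR_V_gene and 7 of the 13 TR_V_pseudogene models, against 3.10% of all transcripts on the sense strand and 5.32% on either. They were found on the opposite strand of no member. Of the segments printed, Trbv1 does not hold them, which does not show that it lacks the cysteine codon. The ends below are of the most used family (Trbv13), of its neighbour family (Trbv12, with the pseudogene Trbv12-3), and of Trbv1 and Trbv31, the outermost members of the locus. Capitals run from TGTGC to the end of the segment. In the order printed, the gene models lie at chr6:41116007-41116468, chr6:41121396-41121832, chr6:41130147-41130585, chr6:41113550-41114067, chr6:41118851-41119364, chr6:41127592-41128076 and chr6:40891229-40891885 on the plus strand and at chr6:41557691-41558452 on the minus strand (GRCm38).
Trbv13-1: catctttgtacttcTGTGCCAGCAGTGATG
Trbv13-2: catcagtgtacttcTGTGCCAGCGGTGATG
Trbv13-3: cagctgtatatttcTGTGCCAGCAGTGATG
Trbv12-1: tctgctatgtacttcTGTGCCAGCTCTCTC
Trbv12-2: tctgccgtgtacttcTGTGCCAGCTCTCTC
Trbv12-3: actttactgtgtactttTGTGCCAGCTCAC
Trbv1: cagaaccttgtactgcacctgcagtgcaga
Trbv31: ctctggcttctacctcTGTGCCTGGAGTCT
Trbv13-2 and Trbv13-3 were identical at 90.6% of aligned bases, Trbv13-1 and Trbv13-2 at 88.7%, and Trbv12-1 and Trbv12-2 at 88.3%, against a median of 72.9% over the 221 pairs of TR_V_gene models with at least 250 aligned bases. Even so, 99.7% of the 50-base words of Trbv13-2 were found in no other gene's transcript. Trbv31 is the only member on the minus strand and lies beyond Trbc2.

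Use of the variable segments was uneven, and its order was nearly the same in both genotypes. Trbv13-2, listed by RefSeq under the older name V beta 8.2, was the most used segment in each library, and its share of Trbv counts was 16.1, 15.5 and 16.05% in wildtype and 17.2, 15.7 and 15.5% in the labelled knockout. Trbv2 followed with 8.70, 8.77 and 8.70% in wildtype and 8.14, 8.39 and 8.50% in the labelled knockout. The libraries labelled knockout were all below the wildtype ones for Trbv2, by a difference in means of 0.38 percentage points, while those of Trbv13-2 overlapped.

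Next in order came 3 segments whose ranges overlap one another. Trbv13-1 held 7.97, 7.60 and 7.79% in wildtype and 7.72, 8.05 and 7.89% in the labelled knockout. Trbv15 held 7.17, 7.61 and 8.49% in wildtype and 7.76, 7.61 and 7.74% in the labelled knockout. Trbv3 held 6.94, 7.64 and 7.42% in wildtype and 7.85, 7.34 and 7.34% in the labelled knockout. In none of them did the genotypes stand apart.

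Below these, Trbv12-2 held 6.44, 6.85 and 6.48% in wildtype and 6.57, 6.09 and 6.26% in the labelled knockout. Trbv19 held 5.68, 5.50 and 6.10% in wildtype and 6.33, 6.25 and 5.99% in the labelled knockout. Trbv16 held 6.20, 6.14 and 5.18% in wildtype and 5.09, 6.12 and 6.64% in the labelled knockout. For all 3 the genotypes overlapped. Together the 8 segments named so far held 65.8% of Trbv counts, and 17 of the 22 TR_V_gene models held at least 1%. The most used TR_V_gene held 176 times the share of the least used one, Trbv4, whose counts are uncertain for the reason given below.

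**Figure D1:**
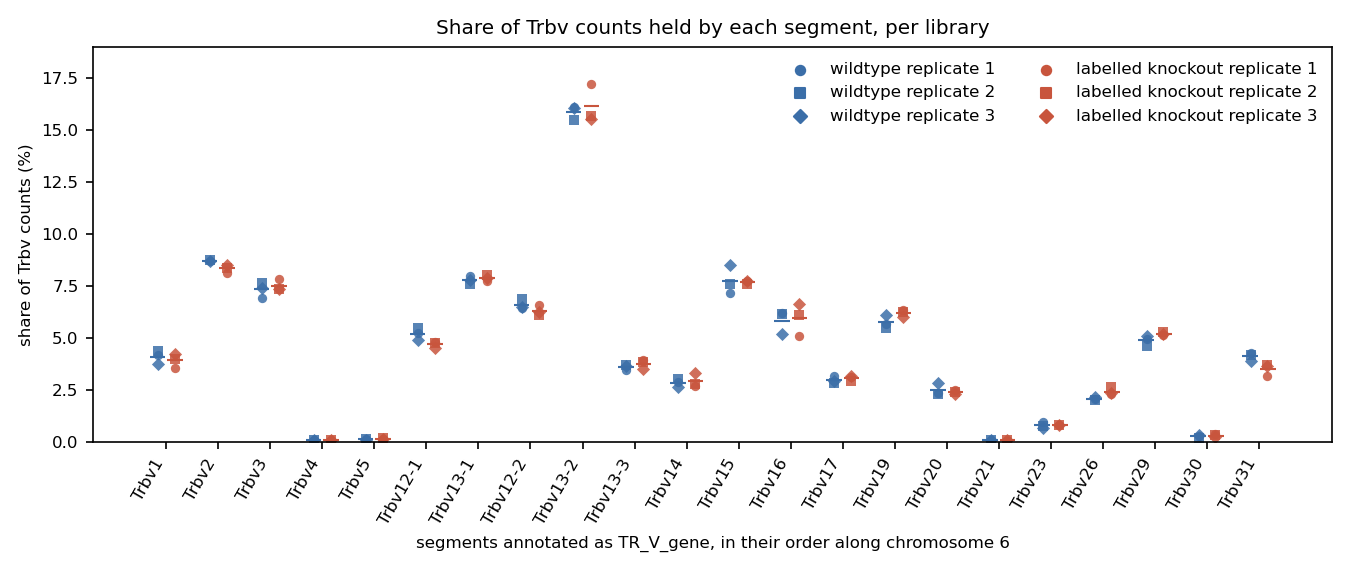
Share of all Trbv counts (vertical axis, %) held by each of the 22 TR_V_gene segments in each library, with segments in their order along chromosome 6, wildtype in blue and labelled knockout in red, and short lines at the group means of 3 libraries. Trbv13-2 stands alone near 16.0%, and the groups lie close together at every segment.

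Longer segments collect more counts, so levels of different segments were compared per kb of exon. On that scale Trbv13-2 had 314 ± 10.3 CPM per kb (SD over the 6 libraries), followed by Trbv13-1 with 143 ± 6.32 and Trbv15 with 139.6 ± 8.61, which do not differ beyond their spread. Trbv12-2 had 112 ± 7.44, Trbv3 had 109 ± 4.42 and Trbv2 had 102 ± 6.80 CPM per kb, with ranges that overlap. Within each library, however, Trbv12-2 lay above Trbv2, so Trbv2 was second by share but not per length. Over 21 TR_V_gene models, the Spearman correlation between level per length and distance from Trbd1 was 0.31. This is a description across segments that share the same libraries.

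The outermost segments held similar shares in wildtype. Trbv1, the member farthest upstream, held 4.19, 4.35 and 3.73% in wildtype and 3.55, 3.99 and 4.23% in the labelled knockout, with overlapping genotypes. Trbv31, which joins by inversion, held 4.27, 4.16 and 3.91% in wildtype and 3.19, 3.72 and 3.63% in the labelled knockout. All 3 labelled knockout libraries were below the wildtype ones for Trbv31, and at 4.11% ± 0.185 against 3.51% ± 0.284 it had the largest lower difference in mean share of the locus (0.60 percentage points). The largest higher difference was that of Trbv19, from 5.76% to 6.19%, with overlapping libraries.

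No variable segment passed the test of a changed share. In a fit of all 18690 genes with the library size set to the Trbv total, 0 of the 25 tested segments had a Benjamini-Hochberg adjusted p under 0.05 by edgeR's quasi-likelihood test, and none by DESeq2, against 0.0963% of all genes by edgeR. None had an unadjusted p under 0.05 by either tool, against 15.9% of all genes. The genotypes did not overlap for 6 of the 25, a share near the 21.8% of all genes whose values relative to the Trbv total do not overlap. Of these 6, Trbv2, Trbv12-1, Trbv12-3 and Trbv31 were lower and Trbv26 and Trbv29 higher in the libraries labelled knockout. Relative to the Trbv total, the median log2 fold was 0.02 over the 25 segments and 0.10 over all genes. The segments make up that total and the other genes do not, so the shares over all genes are not a like background for them.

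The 5 segments of smallest p were Trbv31, Trbv26, Trbv12-3, Trbv12-1 and Trbv5. Trbv31 had a log2 fold relative to the Trbv total of -0.23 (SE 0.11, edgeR's quasi-likelihood test, adjusted p = 0.336), and -0.13 without replicate 1 of each group. Trbv26, with 2.07, 2.02 and 2.15% in wildtype and 2.29, 2.62 and 2.34% in the labelled knockout, had one of 0.21 (SE 0.12, edgeR's adjusted p = 0.395). In Trbv26 every labelled knockout library was above every wildtype one.

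Trbv12-1 held 5.26, 5.46 and 4.93% in wildtype and 4.81, 4.75 and 4.50% in the labelled knockout, so the labelled knockout libraries were all lower. Its log2 fold relative to the Trbv total was -0.15 (SE 0.10, edgeR's adjusted p = 0.473). The remaining pair rests on few counts. Trbv12-3, a pseudogene, had 19, 38 and 25 counts in wildtype and 17, 21 and 19 counts in the labelled knockout, with wildtype replicate 2 the highest, and a log2 fold of -0.66 (SE 0.40, edgeR's adjusted p = 0.448). Trbv5 had 48, 59 and 46 counts in wildtype and 55, 108 and 55 counts in the labelled knockout, and a log2 fold of 0.33 (SE 0.30, edgeR's adjusted p = 0.622), with overlapping genotypes. Without labelled knockout replicate 2 the fold of Trbv5 was 0.12, and without wildtype replicate 2 that of Trbv12-3 was -0.31.

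**Figure D2:**
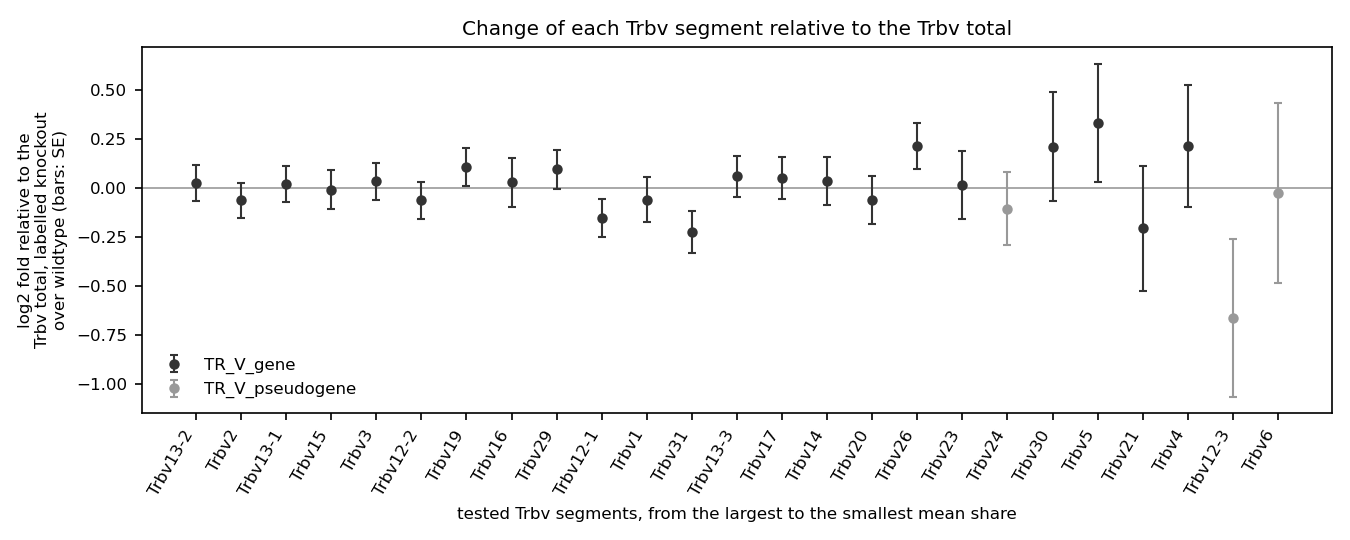
Log2 fold of each of the 25 tested Trbv segments relative to the Trbv total (vertical axis, labelled knockout over wildtype, bars are standard errors derived from the F test on 6 libraries), from the largest to the smallest mean share. Bars are short for the well-used segments, whose folds stay near 0, and long for the sparse ones at the right, such as Trbv12-3 at -0.66.

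Distances between whole usage profiles covered overlapping ranges within and between genotypes. The Jensen-Shannon distance of the Trbv shares (0 for identical profiles, 1 for profiles with nothing in common) was 0.0315 to 0.0529 over the 9 pairs of libraries of different genotype, with a median of 0.0370. Over the 6 pairs of the same genotype it was 0.0275 to 0.0469, with a median of 0.0379. Pairs share libraries, so these ranges carry no test. Across the 35 segments the mean shares of the 2 genotypes had a Pearson correlation of 0.998, a description across segments.

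Diversity of use did not separate the genotypes. The Shannon entropy of the Trbv shares, which is higher when use is more even, was 4.01, 4.01 and 3.998 bits in wildtype and 3.99, 4.02 and 4.01 bits in the labelled knockout. These values correspond to 15.9 to 16.2 equally used segments, and the genotypes overlap (exact permutation test, two-sided, p = 1.0). The share of the Trbv13 family was 27.5, 26.7 and 27.5% in wildtype and 28.9, 27.6 and 26.9% in the labelled knockout, again overlapping (27.3% ± 0.44 against 27.8% ± 0.99, SD, n = 3 each, exact permutation test, two-sided, p = 0.4). This test was 1 of 7 on single values, and with 3 against 3 libraries its smallest p is 0.1. Benjamini-Hochberg adjustment over the 7 gave 0.467 for the Trbv13 share and 1.0 for the entropy. Without replicate 1 of each group the difference in Trbv13 share went from 0.53 to 0.12 percentage points and that in entropy from 0.00021 to 0.012 bits.

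Segments annotated as pseudogenes held a small share of the Trbv counts. The 13 together had between 226 and 343 counts per library, a share of 0.620, 0.699 and 0.653% in wildtype and 0.597, 0.616 and 0.615% in the labelled knockout. The labelled knockout libraries were all just below the wildtype ones (0.657% ± 0.040 against 0.609% ± 0.011, SD, n = 3 each, exact permutation test, two-sided, p = 0.1, Benjamini-Hochberg adjusted 0.233), and 0.1 is the smallest p that test can give. The difference of -0.048 percentage points was -0.027 without wildtype replicate 2 and -0.061 without replicate 1 of each group. Trbv24 supplied most of it, with 204, 205 and 231 counts in wildtype and 163, 282 and 218 counts in the labelled knockout, or 0.509% ± 0.0150 against 0.472% ± 0.0384 of Trbv counts. Its shares overlap between genotypes, while its levels do not. Trbv6 had 18, 17 and 24 counts in wildtype and 28, 23 and 11 counts in the labelled knockout and was not set apart by genotype. Trbv22, Trbv25, Trbv10, Trbv18, Trbv28 and Trbv11 had shares of at most 0.040% in any library. For Trbv7, Trbv9 and Trbv27, a count of 0 allows up to 3 counts in a library, a share of up to 0.00539% to 0.00793%, counting error only.

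Trbv4 and Trbv5 cannot be told from a longer transcript. The lincRNA 5830405F06Rik lies on the same strand and covers 75.1% of the exon bases of Trbv4 and 79.3% of those of Trbv5, and only 27.9% and 22.6% of their 50-base words were found in no other gene. It had between 296 and 447 counts per library, Trbv4 between 29 and 52 and Trbv5 between 46 and 108. The gene model AC153851.1 likewise covers all of Trbv8, whose count of 0 therefore sets no limit on its use, and 15.2% of Trbv10. How the submitters' counting treated reads over such overlaps is not stated in the sources used here.

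With TMM scaling, the summed level of all Trbv segments was lower in every library labelled knockout than in any wildtype one, and with plain total counts it was not. By TMM it was 693, 698 and 676 CPM in wildtype and 625, 663 and 655 CPM in the labelled knockout, so the genotypes do not overlap (689 ± 11.7 against 648 ± 19.9 CPM, SD, n = 3 each). The difference of the mean log2 levels was -0.09, exact permutation test, two-sided, p = 0.1, the smallest that 3 against 3 can give, and 0.233 after Benjamini-Hochberg adjustment over the 7 tests. Without replicate 1 of each group it was -0.06. Scaled by total counts, the level was 682, 724 and 663 CPM in wildtype and 640.0, 673 and 628 CPM in the labelled knockout. Labelled knockout replicate 2 then lay above wildtype replicate 3, so the groups overlapped (exact permutation test, two-sided, p = 0.2), with a difference of -0.09. The summed thymocyte markers were also lower and the gamma delta markers higher in every labelled knockout library, as given above, and their part in this difference and in the members' levels was not tested.

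No member of the locus passed the test of a changed level. By edgeR's quasi-likelihood test 0 of the 43 tested members had a Benjamini-Hochberg adjusted p under 0.05, and DESeq2 also called 0, against 0.091% of all 18690 genes by edgeR. An unadjusted p under 0.05 was given to 6 members by either tool, a share near the 14.6% of all genes by edgeR. The values of 8 members did not overlap between the genotypes, all lower in the labelled knockout libraries, against 20.3% of all genes in either direction. They were Trbv2, Trbv12-1, Trbv12-2, Trbv12-3, Trbv13-2, Trbv20, Trbv24 and Trbv31. Fitted folds were below 0 for 34 members and above 0 for 9, with a median log2 fold of -0.11 against 0.01 over all genes.

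Among Trbv members 19 of 25 were fitted lower, with a median log2 fold of -0.07. Trbv31 had the smallest p of the locus. It was measured at 29.6, 29.02 and 26.4 CPM in wildtype and 19.9, 24.7 and 23.8 CPM in the labelled knockout, all 3 of the latter lower. The log2 fold was -0.31 (SE 0.11, edgeR's quasi-likelihood test, adjusted p = 0.25), and -0.19 without replicate 1 of each group. Trbv12-1 was measured at 36.5, 38.1 and 33.3 CPM in wildtype and 30.05, 31.5 and 29.5 CPM in the labelled knockout, again with no overlap, and its log2 fold was -0.24 (SE 0.10, edgeR's adjusted p = 0.286). Trbv13-2, the most used segment, was at 109 ± 1.95 against 104 ± 2.99 CPM (SD, n = 3 each), a log2 fold of -0.07 (SE 0.08, edgeR's adjusted p = 0.754). Without wildtype replicate 1 or 2, or labelled knockout replicate 2 or 3, at most 1 of the tested members kept an unadjusted p under 0.05, and without labelled knockout replicate 1, or replicate 1 of each group, the number was 10. Without wildtype replicate 3 it was 6. Of all genes, 17.5% had one without wildtype replicate 1, 6.84% without replicate 2 and 12% without replicate 3 of that group. For the labelled knockout these shares were 18.6%, 11.5% and 9.13% in the same order, and without replicate 1 of each group 27.2%. In both fits where 10 of 44 members had one, all 10 were among the 14 Trbj segments. No Trbv, Trbd or Trbc member had one there. The adjusted p stayed above 0.05 for every member in each of these fits.

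**Figure D3:**
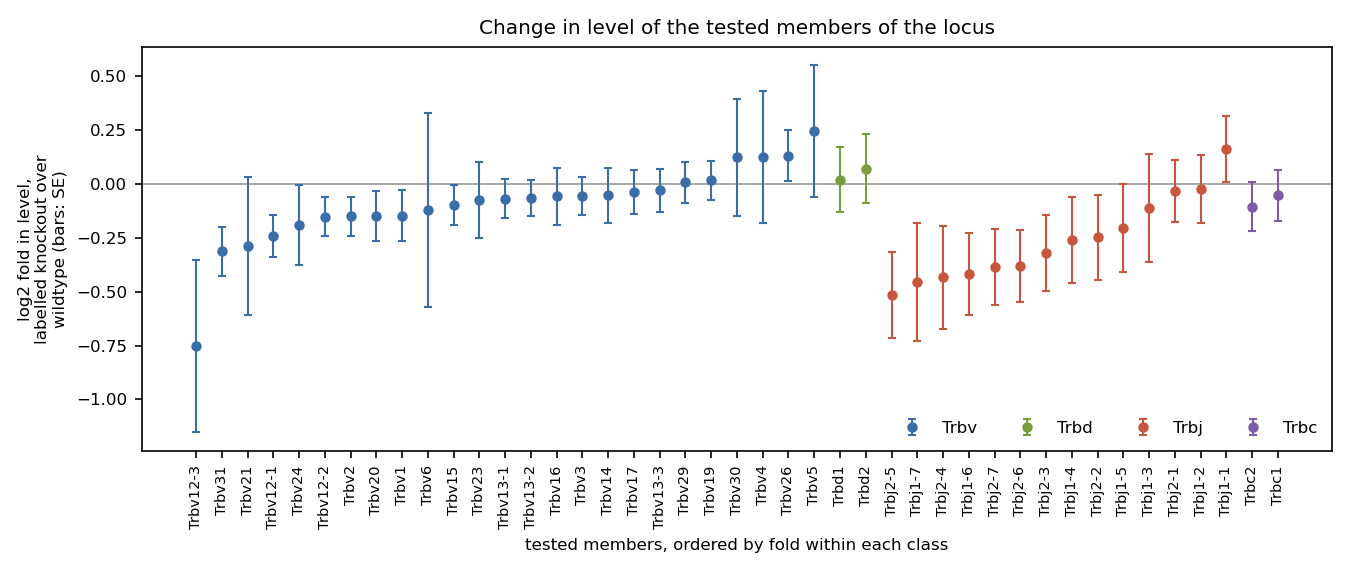
Log2 fold in level of the 43 tested members (vertical axis, labelled knockout over wildtype, bars are standard errors derived from the F test on 6 libraries), ordered within each class of segment. Most Trbv members lie just below 0, the Trbd and Trbc members lie near 0, and 13 of the 14 Trbj members lie below 0, down to -0.51 for Trbj2-5.

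The diversity segments, short as they are, were detected in every library. Trbd1 was measured at 6.46, 7.48 and 8.24 CPM in wildtype and 7.37, 8.04 and 7.04 CPM in the labelled knockout. Trbd2 was measured at 5.57, 6.35 and 5.49 CPM in wildtype and 6.51, 6.49 and 5.26 CPM in the labelled knockout. The genotypes overlapped for both, with log2 folds of 0.02 (SE 0.15) and 0.07 (SE 0.16), and edgeR's Benjamini-Hochberg adjusted p was 0.971 and 0.878. Both segments are shorter than a sequencing read, so such counts come from reads that also cover neighbouring bases, and whether those reads were joined or germline is not recorded in gene counts.

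Joining segments were lower on average in the libraries labelled knockout, and the difference shrank or grew with the library of that group that was left out. The fitted fold was below 0 for 13 of the 14, with a median log2 fold of -0.29, and 4 of the 14 had an unadjusted p under 0.05 by edgeR (none adjusted), against 14.6% of all genes. The summed level was 135, 152 and 125 CPM in wildtype and 142, 118 and 88.8 CPM in the labelled knockout. Labelled knockout replicate 3 was the lowest, replicate 1 of the same group lay above 2 of the wildtype libraries, and the genotypes overlapped (138 ± 13.4 against 116 ± 26.8 CPM, SD, n = 3 each, exact permutation test, two-sided, p = 0.3, Benjamini-Hochberg adjusted 0.42). Without labelled knockout replicate 3 the difference of mean log2 levels moved from -0.26 to -0.08, the median fold of the 14 from -0.29 to -0.11, and 9 of the 14 were fitted lower. None of the 14 kept an unadjusted p under 0.05 without wildtype replicate 1 or 2 or labelled knockout replicate 2 or 3, and 10 had one without labelled knockout replicate 1, where 18.6% of all genes did. The difference of mean log2 levels was -0.42 without labelled knockout replicate 1 and -0.43 without replicate 1 of each group. In the latter fit 10 of the 14 had an unadjusted p under 0.05 by edgeR, where 27.2% of all genes did.

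**Figure D4:**
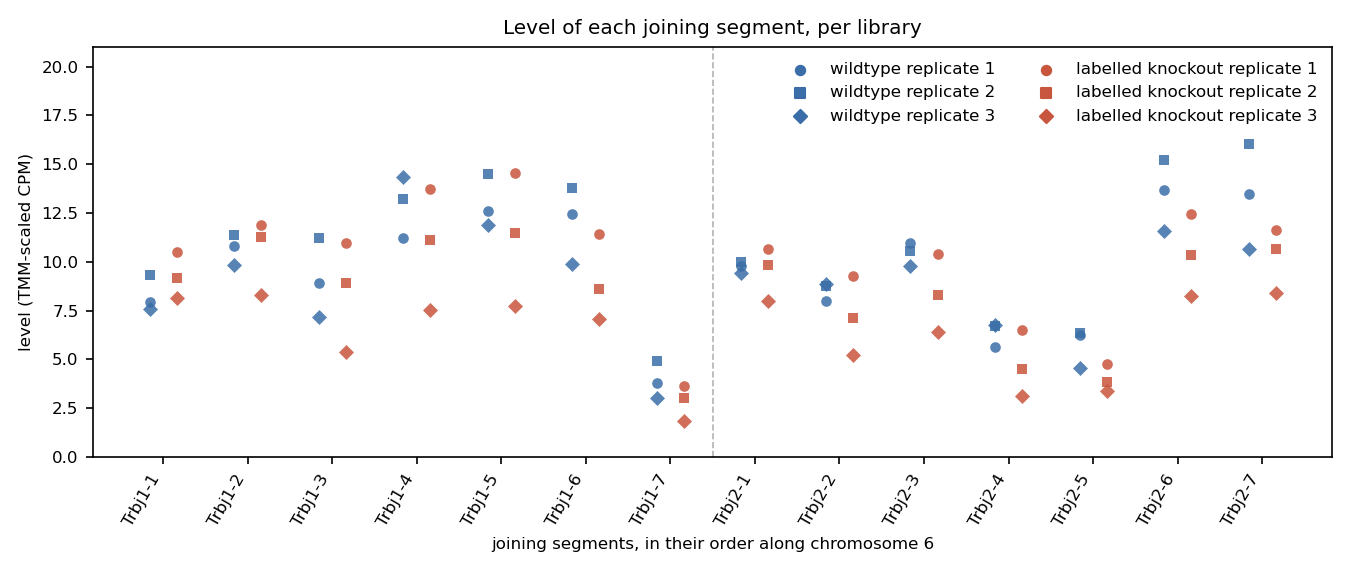
Level of each of the 14 joining segments (vertical axis, TMM-scaled CPM) in each library, in their order along chromosome 6, with the Trbj1 cluster left of the dashed line and the Trbj2 cluster right of it. Labelled knockout replicate 3 (red diamonds) is the lowest library for 13 of the 14, the exception being Trbj1-1.

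In the Trbj1 cluster, the segment farthest from Trbc1 varied least with that library. Trbj1-1 was measured at 7.93, 9.34 and 7.58 CPM in wildtype and 10.5, 9.16 and 8.12 CPM in the labelled knockout. Trbj1-2 was measured at 10.8, 11.4 and 9.84 CPM in wildtype and 11.9, 11.2 and 8.29 CPM in the labelled knockout. In Trbj1-1 labelled knockout replicate 3 lay within the other libraries, and in Trbj1-2 it was the lowest. Trbj1-3 was measured at 8.89, 11.2 and 7.19 CPM in wildtype and 10.99, 8.91 and 5.38 CPM in the labelled knockout. Trbj1-4 was measured at 11.2, 13.2 and 14.3 CPM in wildtype and 13.7, 11.1 and 7.55 CPM in the labelled knockout. Trbj1-5 was measured at 12.6, 14.5 and 11.9 CPM in wildtype and 14.6, 11.5 and 7.75 CPM in the labelled knockout. In these 3 labelled knockout replicate 3 had 0.569 to 0.596 times the mean of the other 5 libraries, against 0.912 in Trbj1-1 and 0.752 in Trbj1-2.

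Trbj1-6 was measured at 12.5, 13.8 and 9.90 CPM in wildtype and 11.4, 8.60 and 7.07 CPM in the labelled knockout, and Trbj1-7, the segment nearest to Trbc1, had the lowest level of its cluster, with 3.81, 4.91 and 3.003 CPM in wildtype and 3.65, 3.03 and 1.87 CPM in the labelled knockout. Both lack the searched letters, and the genotypes overlapped in both. The log2 folds were -0.42 (SE 0.19, edgeR's adjusted p = 0.340) and -0.46 (SE 0.27, edgeR's adjusted p = 0.467).

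In the Trbj2 cluster the first segment again varied least. Trbj2-1 was measured at 9.76, 9.98 and 9.41 CPM in wildtype and 10.6, 9.83 and 7.99 CPM in the labelled knockout. Trbj2-2 was measured at 7.98, 8.74 and 8.89 CPM in wildtype and 9.25, 7.11 and 5.20 CPM in the labelled knockout. Labelled knockout replicate 3 had 0.805 times the mean of the other 5 libraries in Trbj2-1 and 0.620 times in Trbj2-2. Trbj2-3 was measured at 10.98, 10.6 and 9.76 CPM in wildtype and 10.4, 8.31 and 6.40 CPM in the labelled knockout. Trbj2-4 was measured at 5.62, 6.70 and 6.77 CPM in wildtype and 6.53, 4.49 and 3.13 CPM in the labelled knockout. Trbj2-5, the joining segment of smallest p, was measured at 6.24, 6.33 and 4.58 CPM in wildtype and 4.77, 3.86 and 3.38 CPM in the labelled knockout. Wildtype replicate 3 lay below labelled knockout replicate 1 in Trbj2-5, so the genotypes overlapped, and its log2 fold was -0.51 (SE 0.20, edgeR's quasi-likelihood test, adjusted p = 0.274).

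The pseudogene Trbj2-6 was among the highest joining segments. It was measured at 13.7, 15.2 and 11.6 CPM in wildtype and 12.4, 10.4 and 8.26 CPM in the labelled knockout. Trbj2-7, the last of the cluster, was measured at 13.5, 16.04 and 10.6 CPM in wildtype and 11.6, 10.7 and 8.39 CPM in the labelled knockout. Per kb of exon the pair had 248 ± 51.1 and 251 ± 56.3 CPM per kb (SD over the 6 libraries), which do not differ beyond their spread. The log2 folds were -0.38 (SE 0.17, edgeR's adjusted p = 0.328) and -0.39 (SE 0.18, edgeR's adjusted p = 0.340), and the genotypes overlapped in both. Without labelled knockout replicate 3 the fold of Trbj2-6 was -0.24, and without wildtype replicate 2 that of Trbj2-7 was -0.23. Gene counts do not record whether reads over joining segments were joined or germline. Levels, shares and cluster ratios of Trbj counts are therefore not measures of use.

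The low joining segments of labelled knockout replicate 3 were not shared by the variable segments. Relative to the mean of the other 5 libraries, its median fold was 0.635 over the 14 Trbj and 0.967 over the 26 Trbv segments with at least 60 counts. The 45 joining segments of the alpha locus (Traj) had a median of 0.527, and 27 of them were lowest in this library. Over the other 86 gene models of at most 100 exon bases the median was 0.794 and 32.6% were lowest there, against 1.01 and 23.0% of 18403 longer models. The same library had the highest summed level of 4 dendritic cell markers, 44.5 CPM against 10.8 to 25.4 CPM in the other 5. It also had the highest sums for macrophages (48.0 CPM), gamma delta T cells (342 CPM) and invariant natural killer T cells (44.3 CPM). Its thymocyte sum was the lowest (8907 CPM). The sums for natural killer cells, B cells, thymic epithelium and erythroid cells were neither highest nor lowest there. The part of segment length and of these cell types in the low Trbj counts was not tested.

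Over all 14 segments, the Trbj1 cluster gave more counts relative to the Trbj2 cluster in every labelled knockout library than in any wildtype one, and without the pseudogene it did not. The ratio of summed Trbj1 to summed Trbj2 counts was 1.0002, 1.07 and 1.03 in wildtype and 1.17, 1.16 and 1.08 in the labelled knockout. The labelled knockout libraries were all higher, with replicate 3 closest to the wildtype (1.03 ± 0.032 against 1.14 ± 0.052, SD, n = 3 each). The difference of mean log2 ratios was 0.14, and 0.09 without replicate 1 of each group. The exact permutation test, two-sided, gave p = 0.1, its smallest, and 0.233 after Benjamini-Hochberg adjustment over the 7 tests. Without the pseudogene Trbj2-6 the ratio was 1.25, 1.34 and 1.27 in wildtype and 1.44, 1.44 and 1.33 in the labelled knockout. Labelled knockout replicate 3 then lay below wildtype replicate 2, so the groups overlapped, with a difference of 0.12 (exact permutation test, two-sided, p = 0.2).

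As a share of all Trbj counts, 2 of the 14 segments did not overlap between the genotypes, both higher in the labelled knockout, a share near the 13.9% of all genes whose values relative to the Trbj total do not overlap. The segments make up that total and the other genes do not, so the share over all genes is not a like background for them. Trbj1-1 took 5.86%, 6.15% and 6.05% in the wildtype and 7.37%, 7.76% and 9.15% in the labelled knockout libraries. Trbj1-2 took 7.98, 7.49 and 7.85% in wildtype and 8.35, 9.52 and 9.34% in the labelled knockout. These shares were not tested, and the pair was named after the values were seen.

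The constant genes gave most counts of the locus and overlapped between the genotypes. Trbc1 (chr6:41538218-41539881) was measured at 1760.0, 1584 and 1428 CPM in wildtype and 1418, 1539.6 and 1637 CPM in the labelled knockout. Trbc2 (chr6:41546730-41548352) was measured at 2509, 2317 and 2183 CPM in wildtype and 2037, 2184 and 2288 CPM in the labelled knockout. In Trbc1 wildtype replicate 1 was the highest and labelled knockout replicate 1 the lowest library, as in Trbc2. The log2 folds were -0.05 (SE 0.12, edgeR's quasi-likelihood test, adjusted p = 0.870) and -0.11 (SE 0.11, adjusted p = 0.70). That of Trbc2 was -0.0097 without replicate 1 of each group, -0.05 when the wildtype replicate 1 was left out and -0.06 when that of the labelled knockout was. The sign for Trbc1 turned without wildtype replicate 1 (0.025), without labelled knockout replicate 1 (0.00095) and without both (0.077).

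The ratio of Trbc1 to Trbc2 counts overlapped between the genotypes through 1 wildtype library. It was 0.702, 0.683 and 0.654 in wildtype and 0.696, 0.705 and 0.716 in the labelled knockout. Wildtype replicate 1 lay above labelled knockout replicate 1, so the groups overlap (0.680 ± 0.024 against 0.706 ± 0.0098, SD, n = 3 each, exact permutation test, two-sided, p = 0.2, Benjamini-Hochberg adjusted 0.35). The difference of mean log2 ratios was 0.05, and 0.09 without replicate 1 of each group. Without wildtype replicate 1 alone the groups did not overlap (difference 0.08, exact permutation test, two-sided, p = 0.1, the smallest it can give), and without wildtype replicate 3 the difference was 0.03. Trbc1 took 39.5% to 41.7% of the summed counts of both genes in all 6 libraries. Per kb of exon Trbc1 had 2084 ± 174 and Trbc2 3256 ± 230.4 CPM per kb (SD over the 6 libraries).

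**Figure D5:**
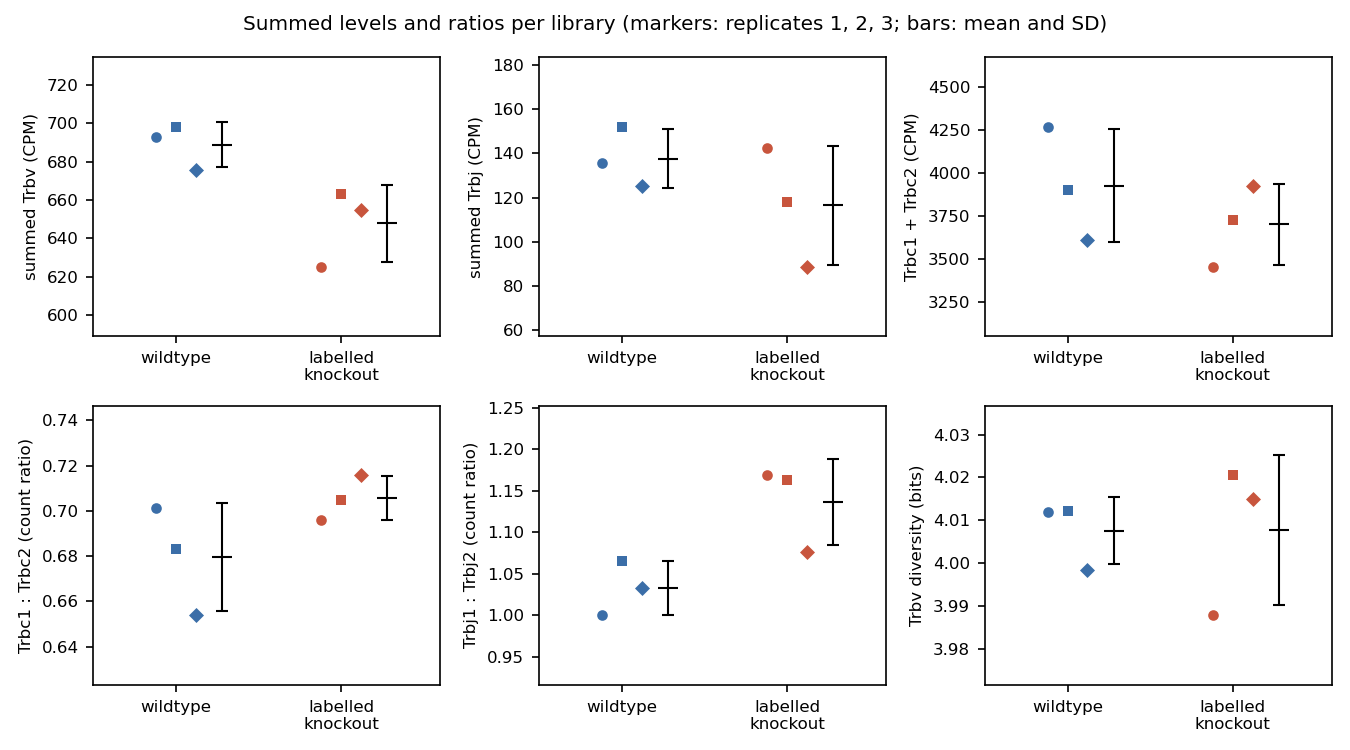
Summed levels (CPM), the ratios Trbc1 to Trbc2 and Trbj1 to Trbj2 (ratios of counts) and Trbv diversity (bits) in each library, with the mean and SD of each group of 3 beside the points, and axes that do not start at 0. With TMM scaling and all 14 Trbj segments, summed Trbv and the Trbj1 to Trbj2 ratio do not overlap between the groups, and the other panels do.

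The ratio of Trbc1 to Trbc2 depends on how reads were shared between near-identical genes. The coding parts of Trbc1 and Trbc2 are 518 bases long and differ at 23, an identity of 95.6%, with an identical run of 259 bases. Only 58.9% of the 50-base words of Trbc1 and 55.99% of those of Trbc2 were found in no other gene. The 60-base stretch with the most of them, 11 of the 23, is that of coding bases 459 to 518 and is printed with the differing letters in capitals.
Trbc1: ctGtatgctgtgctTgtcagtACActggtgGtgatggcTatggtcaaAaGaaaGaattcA
Trbc2: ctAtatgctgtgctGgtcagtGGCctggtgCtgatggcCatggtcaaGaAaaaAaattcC
How the submitters' counting treated reads that match both genes is not stated in the sources used here, so the absolute ratio is uncertain. The same limit holds for every library.

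Of the genes that build and use the beta chain, edgeR called none and DESeq2 called a pair. Of 26 genes for recombination, the CD3 complex, early signalling, transcription and chromatin at the locus, 0 had an edgeR adjusted p under 0.05, while DESeq2 called 2 (Trac and Cd8b1), where it called 3.22% of all genes. An unadjusted p under 0.05 by edgeR was given to 7, of which 6 were lower and Rad21, a cohesin subunit, higher, against 14.6% of all genes. Fitted folds were below 0 for 18 and above 0 for 8, with a median log2 fold of -0.11. The genotypes did not overlap for 9 of the 26, all lower in the labelled knockout libraries, against 20.3% of all genes in either direction.

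Trac, the constant gene of the alpha chain that pairs with the beta chain, had the smallest p of the 26. It was measured at 467, 468 and 474 CPM in wildtype and 316, 393 and 351 CPM in the labelled knockout. All labelled knockout libraries were lower, and its log2 fold was -0.41 (SE 0.11, edgeR's adjusted p = 0.154). The summed variable segments of the alpha locus (Trav) had 251, 249 and 240.3 CPM in wildtype and 191, 223 and 184 CPM in the labelled knockout, lower in all 3 as well. The genes of the coreceptors stood likewise. Cd8b1, a chain of CD8, was measured at 1252, 1379 and 1257 CPM in wildtype and 1029, 1027 and 1098 CPM in the labelled knockout, a log2 fold of -0.30 (SE 0.10, edgeR's adjusted p = 0.235). Cd4 was measured at 1313, 1285 and 1253 CPM in wildtype and 1095, 1096 and 941 CPM in the labelled knockout, a log2 fold of -0.30 (SE 0.11, edgeR's adjusted p = 0.253). Neither overlapped between genotypes.

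Zap70, a kinase that acts on the CD3 chains, was measured at 215, 201 and 187 CPM in wildtype and 156, 179 and 169 CPM in the labelled knockout, a log2 fold of -0.26 (SE 0.10, edgeR's adjusted p = 0.262), with no overlap, and a fold of -0.16 without replicate 1 of each group. Rag1, a subunit of the recombinase, was measured at 3018, 4022 and 3469 CPM in wildtype and 2934, 2808 and 2844 CPM in the labelled knockout. Wildtype replicate 1 was only just above the highest labelled knockout library, and the log2 fold was -0.29 (SE 0.13, edgeR's adjusted p = 0.324). Ptcra, the partner of the beta chain before the alpha chain is made, was measured at 32.8, 34.6 and 32.8 CPM in wildtype and 33.4, 35.8 and 41.05 CPM in the labelled knockout, with overlapping genotypes and a log2 fold of 0.14 (SE 0.10, edgeR's adjusted p = 0.576). Several of these genes are also in the thymocyte marker list, so the lower marker sum and these values are not separate evidence.

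Most other gene models of the region had few or no counts. Between the members and within 100 kb of them lie 35 other models of the table, of which 11 had no count and 7 had at least 60 counts. Ephb6, a receptor tyrosine kinase gene just beyond Trbv31, had 78602 counts in all, and Trpv6, a calcium channel gene, had 3784. The trypsinogen gene Prss2, in the 251 kb between Trbv30 and Trbd1, had 457. These genes were named after their values were seen.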

How the data were processed

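Messenger RNA of thymocytes was sequenced from 6 mice with the TruSeq Stranded mRNA kit, which selects poly(A) RNA and keeps the strand, as the labels' protocols give it. The authors deposited raw counts per Ensembl gene, 1 column per library, made with STAR 2.5.4b and featureCounts on GRCm38, per the submitters' processing notes. Annotation release, strand setting and multi-mapping rule are not stated in the sources used here. All 55536 identifiers matched GENCODE M21 (GRCm38), which gave symbols, positions, gene types and sequences.

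Genes were filtered with edgeR's filterByExpr (18690 left) and scaled by TMM. Genotypes were compared with edgeR 4.0.16 (robust glmQLFit and glmQLFTest, R 4.3.3, no covariate) and Benjamini-Hochberg adjustment over all tested genes at a threshold of 0.05. A second fit set each library size to its Trbv total, between 37846 and 55654 counts. In both fits the SE was derived from the test, as the absolute log2 fold divided by the square root of its F statistic. The biological coefficient of variation was 18.7%. Single values per library were compared with exact two-sided permutation tests, and the summed Trbj level was added after the data were seen. The edgeR level fit was tested on simulated counts. The permutation test, entropy and Jensen-Shannon distance were checked on small inputs with known answers. The DESeq2 fit and the fit relative to the Trbv total were not tested in this way.

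Members and lists were chosen with earlier results of these data known. Values per library were given for the constant, diversity and joining genes, the 8 Trbv segments of largest mean share, Trbv1, Trbv31, the 5 members of smallest p in each fit, the 3 pseudogenes of largest count, Il3ra, and, of 26 partner genes, Rag1, Ptcra, Trac and the 4 of smallest p. Trbv2, Trbv29, Trbv20, Rad21 and the neighbouring genes are named where a count needed it. Summed markers of the other cell types were, in CPM, 9.73 to 16.9 against 4.39 to 15.6 for natural killer cells, 620 to 793 against 577 to 694 for B cells, 25.5 to 37.7 against 19.6 to 48.0 for macrophages, 15.4 to 17.8 against 10.8 to 44.5 for dendritic cells, 5.88 to 8.50 against 7.73 to 10.3 for thymic epithelium, 4.63 to 32.5 against 1.59 to 18.9 for erythroid cells and 28.5 to 37.0 against 23.1 to 44.3 for invariant natural killer T cells (wildtype against labelled knockout). Alternatives were DESeq2 1.42.0, other scalings, no count filter, a replicate block and the omission of libraries. Replicates of a group differed by 41.2 to 96.5 in chi-square per degree of freedom, so none was taken as a duplicate.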

Additional observations from a re-analysis of the deposited data

How the results depend on the processing

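Over all alternatives, 93 values of the main results were unchanged in direction and side of the threshold. Another 5 reversed direction, and 2 counts of called genes moved. The exact permutation tests of single values have a smallest p of 0.1, which lies above the threshold. Their side of it was therefore fixed in advance, and only their direction could change. Counts of called genes have no direction, so for them only the count could change. No member of the locus was called in level or in share under any alternative (DESeq2, RLE scaling in level, scaling to TR_V_gene counts in share, no count filter, the replicate block, each library left out, or replicate 1 of each group left out). The partner genes called went from 0 to 2 with DESeq2 and to 1 without the count filter. These were Trac (adjusted p = 0.00887 with DESeq2 and 0.0245 without the filter) and Cd8b1 (0.0301 with DESeq2). Over all genes, edgeR called 17 in level, DESeq2 602, the fit without the filter 840 of 33265, the fit without replicate 1 of each group 762, and the fits that leave out 1 library 8 to 29. Relative to the Trbv total these numbers were 18, 898, 1004, 850 and 12 to 162. The cause was not tested. The log2 fold of Trbc1 ranged from -0.13 to 0.077 as libraries were left out, and was 0.025 without wildtype replicate 1 and 0.077 without replicate 1 of each group. The difference in Trbv entropy, 0.00021 bits, ranged from -0.0062 to 0.010 as single libraries were left out and was -0.0015 with counts per exon length, an alternative chosen after seeing the data. The difference in Trbv13 share, 0.53 percentage points, ranged from -0.011 to 0.962. Over all genes, same-numbered mice did not deviate together (correlations of -0.098, 0.068 and -0.121). These values cannot decide whether the numbers mark a shared factor, and replicate 1 was the library with high Xist in both groups. With a replicate block 0 members and 0 partner genes were called. Over all genes 9 were then called in level and 11 relative to the Trbv total, against 17 and 18 without the block. Depth limits the sparse segments most: Trbv12-3 rests on 139 counts in all, and its log2 fold in share ranged from -0.92 to -0.31.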
